A study of Homo sapiens with 24 samples.

Results

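The 77 genes that encode the proteins of the mitochondrial ribosome under the symbols MRPL and MRPS were followed in 3D aggregates of LUHMES cells, out of 21240 genes tested. A gene was a member when the RefSeq accession of a probe belonged to a protein-coding symbol of MRPL or MRPS followed by a number, and the probes of a gene were averaged. All 77 had a probe, 63 of them 1 and 14 of them 2, and all 77 passed the filter on dim spots. All 77 were also well above background on all 24 arrays, with at least 1 spot of their probes, and none was saturated. The members comprise 51 proteins of the large subunit and 26 of the small subunit. MRPS30 and MRPS18A carry a small-subunit symbol but were counted with the large subunit, as their uniform names in RefSeq place them there. By the same names 44 members have a bacterial counterpart and 31 are specific to mitochondria, while the names of the other 2, MRPS24 and MRPS28, were not in the table used.

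LUHMES is a conditionally immortalized line from human embryonic mesencephalon that differentiates into dopaminergic neurons. All aggregates were differentiated on a gyratory shaker in medium with cAMP, GDNF and tetracycline, and were exposed on day 7 to rotenone or to its solvent DMSO. RNA of 3 samples per group was hybridized to single-colour Agilent arrays. On day 8, at the end of the exposure, 4 groups were collected: solvent alone, 12 h of 50 nM rotenone, 24 h of 50 nM and 24 h of 100 nM. The 4 groups of day 15 had received the same treatments and were collected after the compound had been washed out and 7 further days in culture. The DMSO groups held the amount of solvent that came with 100 nM rotenone. The sources used here do not say whether the 3 samples of a group came from separate cultures, so that p-values measure the spread between these samples, which may be technical.

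Mitochondria hold their own ribosomes, which translate the few proteins encoded by mitochondrial DNA, all of them subunits of the respiratory chain and the ATP synthase. The ribosomal RNA comes from mitochondrial DNA, whereas every protein of this ribosome is encoded in the nucleus, made in the cytosol and imported. Rotenone blocks complex I, the first enzyme of the respiratory chain, several subunits of which are made on these ribosomes. In bulk RNA, fewer cells of a type and less RNA per cell cannot be told apart.

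All 10 neuron markers and 8 of 11 dopaminergic neuron markers were well above background on all 24 arrays. So were 3 of 5 markers of neural progenitors, while SOX2 of the same list was so on 0 arrays. Of the other lists, 5 of 10 markers of proliferating cells, 2 of 3 oligodendrocyte markers tested and 1 of 5 fibroblast markers were so on all 24 arrays. None of the 5 astrocyte markers and none of the 4 microglia markers tested was well above background on every array. Between 50.9% and 82.4% of the spots of an array were well above background. Replicates are numbered by slide, and slide 1 was a repeat that the labels mark for batch correction, which was done with ComBat. The scan name of day 15 DMSO replicate 1 gives 12 h and does not name DMSO, so its group rests on its label. The residual spread of day 15 100 nM replicate 3 was 0.453 (SD of log2 values), the highest of the 24 arrays.

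The windows upstream of the members' starts are shown first, for the 3 genes that were called in every rotenone comparison of day 8. RefSeq promoter windows of GRCh38.p14, from 250 bases before to 50 bases after the annotated start, were at hand for 69 of the 77 members and 15774 other protein-coding genes. The 250 bases before the start are printed 5′ to 3′ on the strand of the gene. In MRPS6 the capitals mark GGGCGG or its reverse complement, the letters of a box bound by SP factors, which occurred 9 times, some of them overlapping. In MRPL24 the capitals mark GGACTACAACTCCCAG, the longest stretch that occurs 2 times in this window, and in MRPS25 the stretch that matches it with 3 mismatches. These letters resemble the known binding site of the zinc finger protein ZNF143, and the search for them was added after the windows had been read, with a limit of 3 mismatches set so that it takes in the stretch of MRPS25.
MRPS6 (chr21:34073328-34073577, + strand): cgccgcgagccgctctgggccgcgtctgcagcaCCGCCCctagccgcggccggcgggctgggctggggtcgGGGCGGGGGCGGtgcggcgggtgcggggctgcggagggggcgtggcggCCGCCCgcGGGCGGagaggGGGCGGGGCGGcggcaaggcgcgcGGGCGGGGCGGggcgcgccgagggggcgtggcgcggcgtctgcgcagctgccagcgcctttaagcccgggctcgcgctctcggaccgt
MRPL24 (chr1:156741089-156741338, - strand): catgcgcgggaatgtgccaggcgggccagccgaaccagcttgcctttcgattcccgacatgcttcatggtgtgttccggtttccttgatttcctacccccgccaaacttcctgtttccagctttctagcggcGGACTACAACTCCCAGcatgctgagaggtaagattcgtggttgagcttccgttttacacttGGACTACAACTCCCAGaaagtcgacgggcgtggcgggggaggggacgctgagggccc
MRPS25 (chr3:15065316-15065565, - strand): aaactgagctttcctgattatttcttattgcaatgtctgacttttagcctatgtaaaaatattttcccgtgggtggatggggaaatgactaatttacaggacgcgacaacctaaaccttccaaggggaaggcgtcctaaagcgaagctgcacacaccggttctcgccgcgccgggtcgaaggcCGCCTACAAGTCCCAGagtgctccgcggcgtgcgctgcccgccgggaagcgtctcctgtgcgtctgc

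The stretch of 16 bases began 118 and 57 bases before the start of MRPL24, and its match 67 bases before that of MRPS25. With up to 3 mismatches it occurred in 9 of the 69 member windows, or 13%, and in 3.54% of the other windows. The 9 include MRPL24 and MRPS25, which set the letters and the limit and so match by construction. The other 7 were those of MRPL19, MRPL32, MRPL42, MRPL50, MRPL54, MRPS22 and MRPS26. GGGCGG occurred in 42 member windows, which is 60.9%, and in 58.5% of the other windows. CCGGAAG, the core bound by ETS factors such as GABP, occurred in 29 member windows, 42% of them, and in 14.1% of the others. AAGATGGC, the core bound by YY1, occurred in 20 member windows, 29% of them, and in 3.8% of the others. GCGCATGC, a core of the site bound by NRF1 that replaced a longer form already counted, occurred in 6 member windows, 8.7% of them, and in 4.24% of the others. Both strands of the 300 bases were searched, and a match is a description of the letters. A protein-coding gene on the opposite strand started within 1000 bases upstream of 18 members, or 26.1%, and of 10.2% of the other genes. MRPL46 and MRPS11 were such a pair, with starts 320 bases apart. MRPS6 was the only member with the same annotated start as another gene on its strand, SLC5A3, which encodes an inositol transporter.

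On day 8, 100 nM rotenone for 24 h was accompanied by higher signal of 6 members and lower signal of 1 at an adjusted p under 0.05 (limma, Benjamini-Hochberg over all 21240 genes). The 6 were 7.79% of the members, where 4.07% of all genes were higher, and the 1 was 1.3%, where 5.41% of all genes were lower. MRPS25, a small-subunit protein specific to mitochondria, had the largest increase, 0.51 on the log2 scale (SE 0.10, adjusted p = 0.00204), or 42.8%. MRPL24, a large-subunit protein with a bacterial counterpart, was upregulated by 0.39 (SE 0.07, adjusted p = 0.00139). MRPL40, also of the large subunit, was upregulated by 0.37 (SE 0.09, adjusted p = 0.0146). MRPS5, a small-subunit protein with a bacterial counterpart, was upregulated by 0.31 (SE 0.07, adjusted p = 0.00896), and its 2 probes gave 0.38 and 0.24. MRPL58, a peptidyl-tRNA hydrolase that became a part of the large subunit, was upregulated by 0.29 (SE 0.08, adjusted p = 0.0243). MRPS15 of the small subunit was upregulated by 0.25 (SE 0.07, adjusted p = 0.0309). The only member downregulated was MRPS6, a small-subunit protein with a bacterial counterpart, with a log2 change of -0.41 (SE 0.09, adjusted p = 0.00689). None of the 7 changes exceeded 1.5-fold.

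The other 70 members did not pass the test, and the changes of all 77 lay between -0.41 and 0.51. Their median was 0.02, against -0.02 for all genes, and 43 of the 77 were above 0. The middle part of the members, from the 25th to the 75th percentile, spanned -0.05 to 0.16, against -0.20 to 0.16 for all genes. The median was 0.01 in the large subunit and 0.06 in the small subunit. Within slides 1, 2 and 3 the median change of the members was -0.01, 0.08 and 0.03, so that its sign differed between slides. At an unadjusted p under 0.05, 15 members were higher and 5 lower, together 26% of the members, where 20.6% of all genes passed this cut. Among these members were MRPL54 at -0.38 (adjusted p = 0.0623) and MRPL37 at 0.26 (adjusted p = 0.0732).

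**Figure D1:**
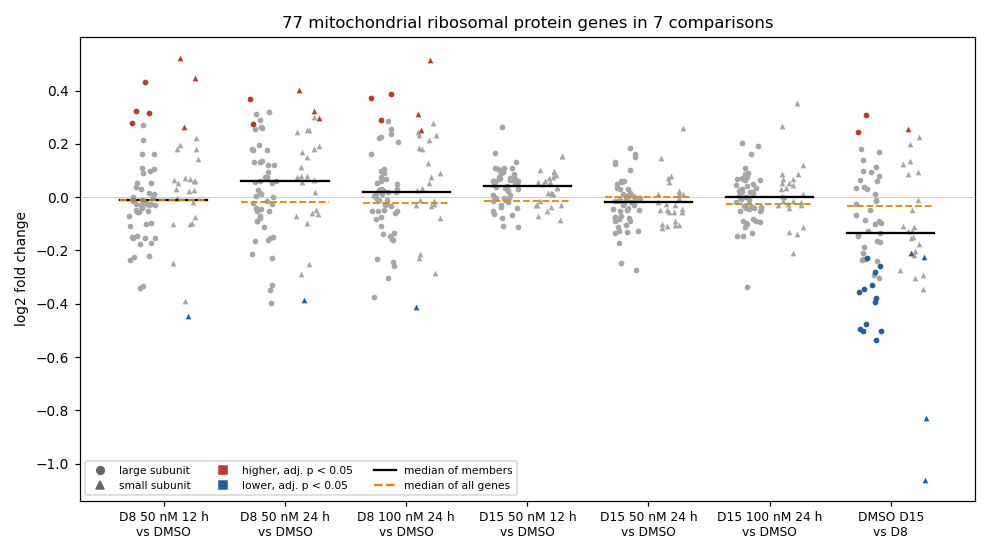
Log2 fold change of each of the 77 members in 7 comparisons, with circles for the large and triangles for the small subunit, red for higher and blue for lower at an adjusted p under 0.05, a black line for the median of the members and a broken orange line for the median of all genes. Called members are present in the 3 comparisons of day 8 and between the days in DMSO, and absent from the 3 rotenone comparisons of day 15.

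These calls differed with the handling of slide 1 and with the arrays in the fit. Without batch correction 1 of the 7 remained, MRPS25, and with slides 2 and 3 alone, which leaves fewer samples, 0 members were called. A fit of only the arrays compared, also with fewer samples, called 1 member, while the slide as a block gave 10, which included all 7. The cause of these shifts was not tested. MRPL24, MRPS25 and MRPS5 kept their calls in all 6 fits that left out 1 array of the comparison, while MRPL40 kept its call in 4 of them, MRPL58 in 2 and MRPS15 in 1. MRPS6 lost its call without day 8 100 nM replicate 1 (-0.34, adjusted p = 0.057). It also lost it in 5 of the 11 alternatives, among them scaling to the 75th percentile in place of quantile normalization (-0.30, adjusted p = 0.177).

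Markers of cell types moved in the same comparison, in which 4.07% of all genes were higher and 5.41% lower. Of 10 neuron markers 3 were downregulated and 0 upregulated after 100 nM, with a median of -0.16, and their summed signal was 273069 to 316221 on the DMSO arrays and 266472 to 270732 on the 100 nM arrays. All 10 markers of proliferating cells were below 0, with a median of -0.20, but 0 of them passed the test, and their summed signal was 1851 to 2743 in DMSO and 1733 to 1970 after 100 nM. After 50 nM for 24 h 2 neuron markers were downregulated, and after 50 nM for 12 h 0 were. Each of these 20 markers was well above background on at least 1 array, and the part of these markers in the changes of the members was not tested.

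MRPS6, MRPL24 and MRPS25 were the members called in all 3 rotenone comparisons of day 8, which share the same 3 DMSO arrays. The log2 signal of MRPS6 in DMSO was 14.16, 14.03 and 14.14. It was 13.71, 13.58 and 13.70 after 50 nM for 12 h, 13.81, 13.60 and 13.76 after 50 nM for 24 h, and 13.58, 13.74 and 13.78 after 100 nM for 24 h. All 9 rotenone arrays of day 8 thus lay below the 3 DMSO arrays, as they did for MRPL14, MRPL54 and MRPS18C. These 4 were 5.19% of the members, against 6.7% of all genes. The 2 probes of MRPS18C differed. A probe with a mean log2 signal of 5.67 changed by -0.567 after 100 nM and -0.63 after 50 nM for 24 h, and the other by -0.005 and 0.131. After 100 nM the probes agreed in sign for 8 of the 14 members with 2 probes. The log2 signal of MRPL24 in DMSO was 9.70, 9.59 and 9.70. After 50 nM for 12 h it was 9.92, 9.98 and 9.94, after 50 nM for 24 h 10.07, 9.99 and 10.04, and after 100 nM for 24 h 10.10, 10.02 and 10.05. The 3 DMSO arrays of day 8 were the lowest of all 24 arrays for MRPL24 alone, 1.3% of the members. They were the highest of all 24 for MRPS6 and MRPS18C, 2.6% of the members. The shares of all genes with these 2 patterns were not counted, so that neither can be called particular to these members. The log2 signal of MRPS25 was 9.004, 9.09 and 8.98 in DMSO, 9.56, 9.67 and 9.41 after 50 nM for 12 h, 9.42, 9.42 and 9.45 after 50 nM for 24 h, and 9.52, 9.49 and 9.61 after 100 nM. All 9 rotenone arrays lay above the DMSO arrays for 8 members, which were MRPL24, MRPS25, MRPL3, MRPL42, MRPL58, MRPS5, MRPS24 and MRPS31. These were 10.4% of the members, against 5.1% of all genes.

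**Figure D2:**
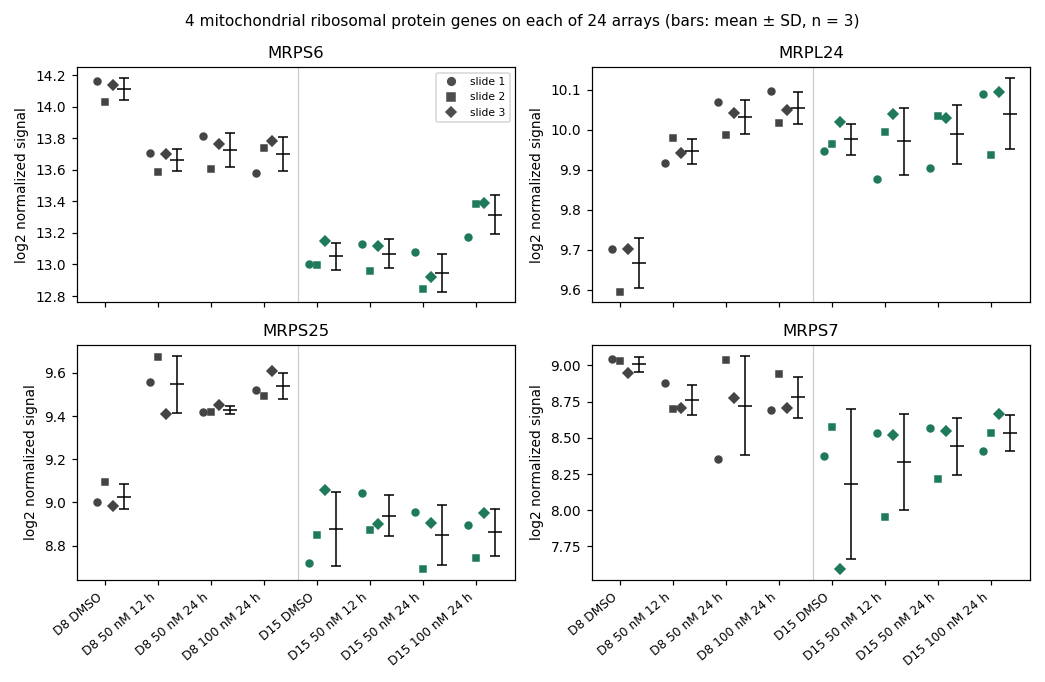
Log2 normalized signal of MRPS6, MRPL24, MRPS25 and MRPS7 on each of the 24 arrays (symbols for slides 1 to 3, day 8 in grey and day 15 in green), with mean and SD of the 3 arrays of a group. For MRPL24 the day 8 DMSO arrays, at 9.59 to 9.70, lie below all others, and for MRPS6 every day 15 array lies below every day 8 array.

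Within slides 1, 2 and 3, MRPS6 differed between 100 nM and DMSO on day 8 by -0.59, -0.29 and -0.36, MRPL24 by 0.40, 0.42 and 0.35, and MRPS25 by 0.52, 0.40 and 0.62. Each of these genes changed in 1 direction on all 3 slides, which follows from their rotenone arrays not overlapping the DMSO arrays and adds no support. Of all 77 members 27 were higher and 13 lower on all 3 slides. SLC5A3, which shares the annotated start of MRPS6, had a log2 signal of 11.89, 12.19 and 12.01 in DMSO on day 8 and of 11.54, 11.63 and 11.71 after 100 nM for 24 h. Its change was -0.40 (SE 0.14, adjusted p = 0.0877) after 100 nM, -0.24 (adjusted p = 0.388) after 50 nM for 24 h and -0.60 (adjusted p = 0.0159) after 50 nM for 12 h. SLC5A3 therefore passed the test in 1 of the 3 comparisons in which MRPS6 passed it.

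After 50 nM rotenone for 24 h, 5 members were upregulated, 6.49% against 3.66% of all genes, and 1 was downregulated, 1.3% against 4.36%. The 5 were MRPS25 with 0.40 (SE 0.10, adjusted p = 0.0148), MRPL24 with 0.37 (adjusted p = 0.00274), MRPS28 of the small subunit with 0.32 (adjusted p = 0.017), MRPS15 with 0.30 (adjusted p = 0.0136) and MRPL3, a large-subunit protein with a bacterial counterpart, with 0.27 (adjusted p = 0.0334). MRPS6 was downregulated by -0.39 (SE 0.09, adjusted p = 0.013). The median of the members was 0.06, against -0.02 for all genes, and 47 of 77 were above 0. Within slides 1, 2 and 3 this median was 0.03, 0.06 and 0.07. Without day 8 DMSO replicate 3 the number of calls fell from 6 to 2, and it was 0 without batch correction. Only MRPL24 kept its call with any 1 array of the comparison left out. MRPS25 lost it without day 8 DMSO replicate 1 (adjusted p = 0.0529) or 3 (adjusted p = 0.0587) or 50 nM 24 h replicate 3 (adjusted p = 0.0506), and MRPS6 without day 8 DMSO replicate 1 (adjusted p = 0.0561) or 3 (adjusted p = 0.0501) or 50 nM 24 h replicate 2 (adjusted p = 0.0737). With scaling to the 75th percentile the change of MRPS6 was -0.185 (adjusted p = 0.551) and with the scanner's processed signal -0.194 (adjusted p = 0.418), so that its size was more than 1.5 times smaller and the call was lost.

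After 50 nM for 12 h, 7 members were upregulated, 9.09% against 2.66% of all genes, and 1 was downregulated, 1.3% against 2.85%. MRPS25 rose by 0.52 (SE 0.10, adjusted p = 0.00318), MRPS24 of the small subunit by 0.45 (adjusted p = 0.021) and MRPL42 of the large subunit by 0.43 (adjusted p = 0.0138). MRPL3 rose by 0.32 (adjusted p = 0.0171), MRPL58 by 0.32 (adjusted p = 0.0223), MRPL24 by 0.28 (adjusted p = 0.0239) and MRPS5 by 0.26 (adjusted p = 0.0407). MRPS6 again was the 1 member downregulated, with -0.45 (SE 0.09, adjusted p = 0.00657). The median of the members was -0.01, which was also that of all genes. MRPS25 and MRPS6 were called with any 1 array of the comparison left out, whereas MRPS5 lost its call in all 6 such fits and each of the other 5 in 3 of them. MRPS6 lost its call in 5 of the 11 alternatives, with adjusted p-values of 0.0639 without batch correction, 0.107 with the processed signal, 0.112 in a fit of only the arrays compared, 0.138 with scaling to the 75th percentile and 0.161 with slides 2 and 3 alone. The number of calls was 4 without day 8 DMSO replicate 2 or 3 or without replicate 2 of this group, 3 without its replicate 3, and 1 without batch correction. With the slide as a block MRPS5 was no longer called (adjusted p = 0.0504).

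Direct comparisons of the rotenone groups on day 8 showed no called member. Between 100 nM and 50 nM for 24 h, 0 of 77 members and 0% of all genes were called in either direction. At an unadjusted p under 0.05, 2 members were higher and 1 lower, together 3.9% of the members against 4.17% of all genes. Between 24 h and 12 h of 50 nM, 0 members were called, where 0.268% of all genes were higher and 0.268% lower. Here 6 members were higher and 3 lower at an unadjusted p under 0.05, together 11.7% of the members against 10.9% of all genes. The smallest of these p-values belonged to MRPS28, with a difference of 0.29 (adjusted p = 0.12). MRPS28 had a log2 signal of 9.99, 9.98 and 9.95 in DMSO and 9.999, 9.89 and 10.12 after 12 h, and then 10.36, 10.30 and 10.24 after 24 h of 50 nM. Without 50 nM 12 h replicate 3 its difference between the times was 0.35 (adjusted p = 0.0492) and 2 members were called.

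A week after the wash-out, no member passed the test against DMSO. In each of the 3 rotenone groups 0 members were called in either direction, and so were 0% of all genes. At an unadjusted p under 0.05, 2 members were higher and 0 lower after 100 nM, and 1 higher and 1 lower after 50 nM for 24 h. After 50 nM for 12 h there were 0 in either direction. In this order these were 2.6%, 2.6% and 0% of the members, against 7.21%, 3.28% and 3.47% of all genes. On the log2 values deposited by the authors limma also called 0 members in all 3 groups. The median of the members was 0.00 after 100 nM, -0.02 after 50 nM for 24 h and 0.04 after 50 nM for 12 h, against -0.03, 0.00 and -0.01 for all genes. After 100 nM the members lay between -0.34 and 0.35. The 2 members with an unadjusted p under 0.05 after 100 nM were MRPS6, at 0.27 (adjusted p = 0.628), and MRPL28 of the large subunit, at 0.20 (adjusted p = 0.631). The log2 signal of MRPL28 was 11.71, 11.80 and 11.66 in DMSO, 11.82, 11.79 and 11.76 after 50 nM for 12 h, 11.83, 11.97 and 11.92 after 50 nM for 24 h and 12.02, 11.96 and 11.80 after 100 nM. MRPL24 differed by 0.06 (adjusted p = 0.866) after 100 nM and MRPS25 by -0.01 (adjusted p = 0.989). A p-value that misses the threshold does not show that the levels were the same.

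**Figure D3:**
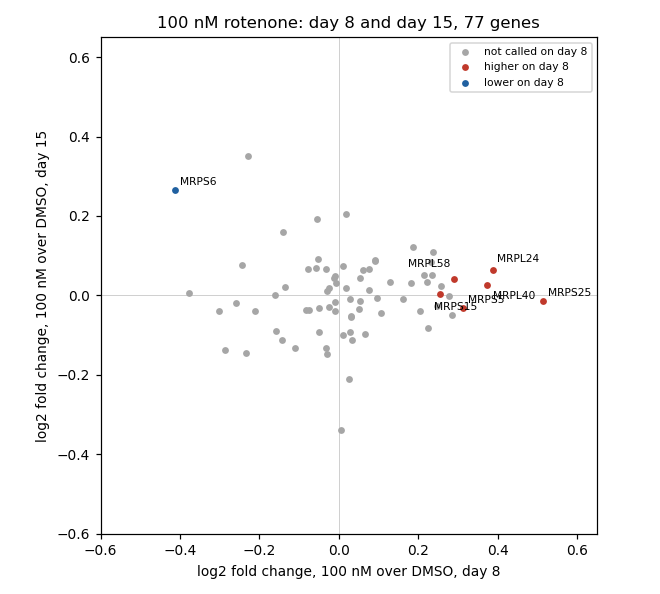
Log2 fold change of the 77 members between 100 nM rotenone and DMSO on day 8 (horizontal) and on day 15 (vertical), with the members called on day 8 in colour and named. The 6 members higher on day 8 lie near 0 on day 15, and MRPS6 moves from -0.41 to 0.27.

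The difference between the 100 nM change on day 15 and that on day 8 was tested for each gene. MRPS6 was the only member called, with a difference of 0.68 on the log2 scale (SE 0.13, adjusted p = 0.00718), where 1.15% of all genes had a positive and 1.29% a negative difference. On day 15 the log2 signal of MRPS6 was 13.004, 12.997 and 13.15 in DMSO and 13.17, 13.38 and 13.39 after 100 nM, so that the 100 nM arrays lay above the DMSO arrays, where on day 8 they lay below. It was 13.13, 12.96 and 13.11 after 50 nM for 12 h and 13.08, 12.84 and 12.92 after 50 nM for 24 h, which overlapped with DMSO. The difference of MRPS25 was -0.53 (SE 0.14, adjusted p = 0.0515) and did not pass. It passed without day 15 DMSO replicate 1 (-0.63, adjusted p = 0.0239) and without day 15 100 nM replicate 3 (-0.58, adjusted p = 0.0446). SLC5A3 had a difference of 0.56 (SE 0.20, adjusted p = 0.176). The call of MRPS6 was not made without batch correction (0.68, adjusted p = 0.0828) or with scaling to the 75th percentile (0.51, adjusted p = 0.173).

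The DMSO groups of day 8 and day 15 differ in time in culture and in the wash-out but not in rotenone. Between them 17 members were downregulated, 22.1% of the 77 against 13.2% of all genes. Only 3 were upregulated, 3.9% against 10.1% of all genes. The median change of the members was -0.13, against -0.04 for all genes, and 55 of 77 were below 0. Within slides 1, 2 and 3 the median was -0.21, -0.15 and -0.07. MRPS6 had the largest change, -1.06 (SE 0.09, adjusted p = 8.17e-08), or 52% less. MRPS7, a small-subunit protein with a bacterial counterpart, changed by -0.83 (SE 0.21, adjusted p = 0.00775). The log2 signal of MRPS7 was 9.05, 9.03 and 8.95 on day 8 and 8.38, 8.58 and 7.59 on day 15, so that the groups did not overlap but day 15 replicate 3 was far below the other 2. Without that array the change was -0.53 (adjusted p = 0.0486), which is less than 1.5-fold. The call of MRPS7 was lost with slides 2 and 3 alone (adjusted p = 0.101) and in a fit of only the arrays compared (adjusted p = 0.061). Apart from MRPS6 and MRPS7, no member changed by more than 1.5-fold.

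The next changes were all in the large subunit. MRPL42 changed by -0.54 (adjusted p = 0.000577) and MRPL11, a protein at the base of the stalk that binds translation factors, by -0.50 (adjusted p = 0.00285). MRPL13 changed by -0.50 (adjusted p = 0.00211), MRPL50 by -0.49 (adjusted p = 0.00101), MRPL9 by -0.48 (adjusted p = 0.000319) and MRPL15 by -0.39 (adjusted p = 0.00614). The log2 signal of MRPL42 was 9.64, 9.36 and 9.45 on day 8 and 8.84, 8.82 and 9.18 on day 15. That of MRPL9 was 11.31, 11.20 and 11.26 on day 8 and 10.75, 10.79 and 10.81 on day 15. For both genes the 2 days did not overlap. The same held, with day 15 lower, for 31 of the 77 members and for 4805 of all 21240 genes. The remaining 9 members that fell, with changes from -0.38 to -0.21, were MRPL51, MRPL45, MRPS18A, MRPL19, MRPL16, MRPL22, MRPL3, MRPS5 and MRPS21. MRPL45, which anchors the ribosome at the inner membrane, fell with both of its probes, by 0.33 and 0.38 on the log2 scale.

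The 3 members upregulated from day 8 to day 15 were MRPL24 with 0.31 (SE 0.07, adjusted p = 0.00321), MRPS28 with 0.26 (adjusted p = 0.0269) and MRPL23, a large-subunit protein with a bacterial counterpart, with 0.24 (adjusted p = 0.0378). MRPL24 had 9.95, 9.96 and 10.02 in DMSO on day 15, in the range of the rotenone arrays of day 8. MRPL23 had 9.76, 9.55 and 9.67 on day 8 and 9.88, 9.85 and 9.98 on day 15. Its call was lost without day 8 DMSO replicate 2 (adjusted p = 0.164) or 3 (adjusted p = 0.0747) and without day 15 DMSO replicate 1 (adjusted p = 0.0667) or 3 (adjusted p = 0.126). The call of MRPS28 was lost without day 8 DMSO replicate 1 (adjusted p = 0.0508), 2 (adjusted p = 0.0587) or 3 (adjusted p = 0.0785) and without day 15 DMSO replicate 2 (adjusted p = 0.0789) or 3 (adjusted p = 0.101). Across the left-out arrays the number of called members lay between 14 and 23. Without batch correction it was 9, and with slides 2 and 3 alone 1.

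**Figure D4:**
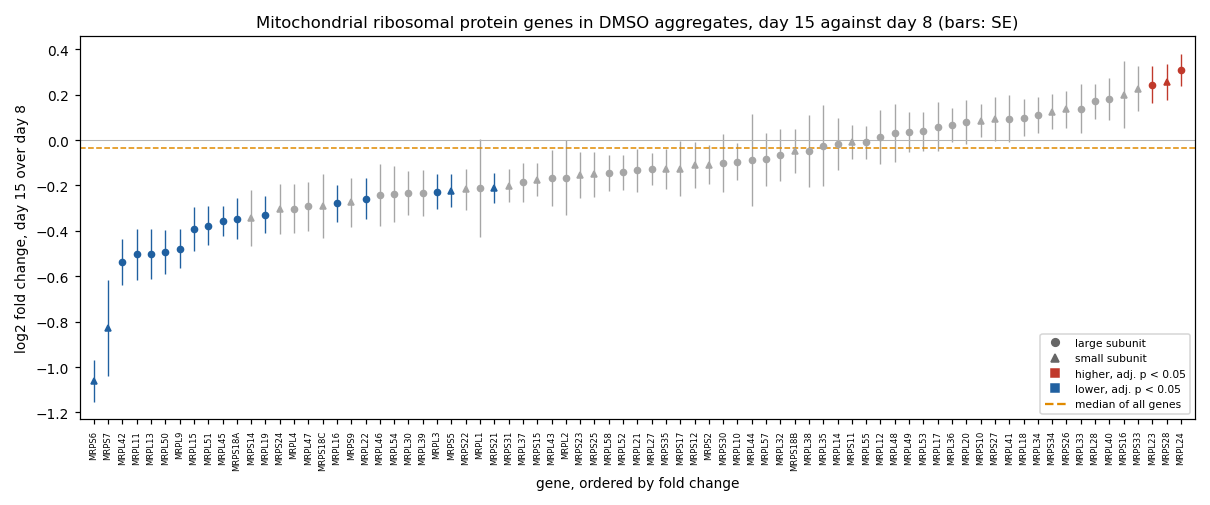
Log2 fold change from day 8 to day 15 in DMSO for the 77 members in order of their change (circles large subunit, triangles small subunit, bars SE), with called members in colour and the median of all genes as a broken line. The 17 members called lower reach from -1.06 for MRPS6 to -0.21 for MRPS21, and 3 members were called higher.

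Of the members called between the days, 16 had a promoter window, and 7 of these held the YY1 core AAGATGGC, as did 13 of 53 windows of members not called. Since 15 of the 16 were members that fell and MRPL24 was the only one that rose, the windows cannot tell the directions apart. In each of the 7 the core began between 9 and 36 bases after the annotated start, and 15 of 21 matches in all member windows lay after the start. All 15 read AAGATGGC on the strand of the gene, and whether YY1 binds these letters was not tested. The 7 sites are printed 5′ to 3′ on the strand of the gene, to show the bases next to the core, which is in capitals and is the same in all of them by the search.
MRPS7 (chr17:75261892-75261911, + strand): ccagccAAGATGGCtgcccc
MRPL42 (chr12:93467516-93467535, + strand): tgaaacAAGATGGCgggttc
MRPL50 (chr9:101398582-101398601, - strand): tcatcgAAGATGGCggcgcg
MRPL51 (chr12:6493228-6493247, - strand): aggcccAAGATGGCtgtctt
MRPL45 (chr17:38297175-38297194, + strand): gggaacAAGATGGCagcccc
MRPS18A (chr6:43687769-43687788, - strand): tttttgAAGATGGCggccct
MRPL22 (chr5:154941102-154941121, + strand): gggcgaAAGATGGCggcggc

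The difference between the days could also be followed in the rotenone groups, whose arrays are other samples than the DMSO arrays. The 17 members that fell in DMSO were lower on day 15 than on day 8 in all 3 rotenone groups. Their median difference was -0.30 for 50 nM 12 h, -0.44 for 50 nM 24 h and -0.38 for 100 nM, and the smallest was -0.13. The other genes that fell in DMSO were not counted in this way, so that this cannot be called particular to the members. The 3 members that rose in DMSO were all higher on day 15 for 50 nM 12 h, but only 1 of them was for 50 nM 24 h and 2 were for 100 nM. MRPL23 was higher on day 15 in all 3 rotenone groups, by 0.29, 0.18 and 0.16. MRPL24 differed between the days by 0.02 for 50 nM 12 h, -0.04 for 50 nM 24 h and -0.01 for 100 nM. Over all 77 members the median difference between the days was -0.13 in DMSO, -0.13 for 50 nM 12 h, -0.19 for 50 nM 24 h and -0.16 for 100 nM. For 13 members, 16.9% of them, all 12 arrays of day 15 lay below all 12 of day 8, against 7.38% of all genes. They were MRPS6, MRPL42, MRPS24, MRPL9, MRPL50, MRPL19, MRPL51, MRPL3, MRPL15, MRPL45, MRPL30, MRPS5 and MRPS31. For 2 members, MRPL23 and MRPL28, or 2.6%, all arrays of day 15 lay above those of day 8, against 5.51% of all genes.

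Values of other lists moved with the difference between the days. Of 10 markers of proliferating cells 8 were downregulated from day 8 to day 15 in DMSO, with a median of -1.35. Their summed signal was 1851 to 2743 on day 8 and 1292 to 1418 on day 15, and their part in the fall of the members was not tested. The ribosomal proteins of the cytosol, which serve the other ribosome of the cell, were measured with 77 genes. In DMSO 13 of them fell from day 8 to day 15, 16.9% against 13.2% of all genes. Only 1 rose, 1.3% against 10.1%, and the median was -0.10. After 100 nM on day 8, 7 of them rose and 1 fell, with a median of 0.08, after 50 nM for 24 h 9 rose and 1 fell, and after 50 nM for 12 h 0 rose and 1 fell. The shares that rose were 9.09%, 11.7% and 0%, against 4.07%, 3.66% and 2.66% of all genes. The share that fell was 1.3% each time, against 5.41%, 4.36% and 2.85%. After 50 nM for 12 h the median of the cytosolic set was nevertheless 0.04 and 58 of 77 were above 0. This compares with a median of -0.01 and 37 of 77 for the mitochondrial members, 7 of which were called higher. These differences between the 2 sets were not tested. The median deviation from each gene's own mean lay between -0.003 and 0.13 on the day 8 arrays for the mitochondrial members and between -0.13 and 0.03 on the day 15 arrays.

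**Figure D5:**
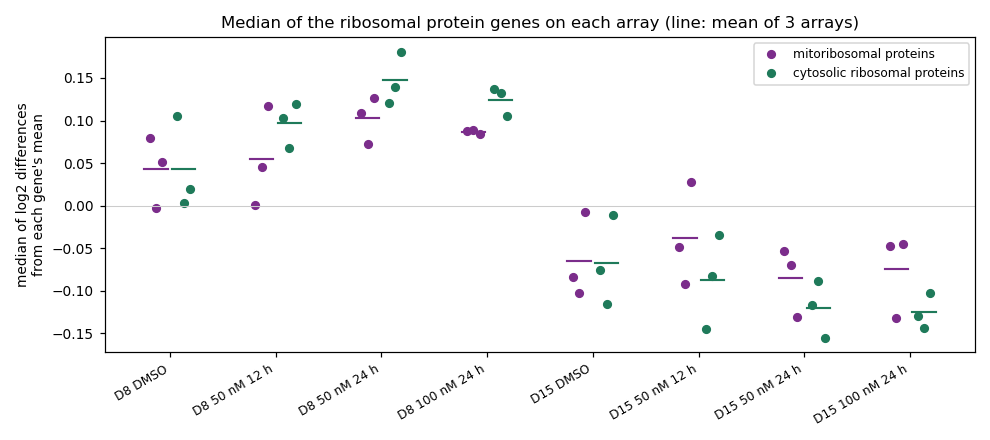
Median over genes of the log2 difference from each gene's mean over all arrays, on each of the 24 arrays, for the mitochondrial (purple) and cytosolic (green) ribosomal proteins, with lines for the mean of 3 arrays. Both sets are higher on day 8 than on day 15, apart from single arrays that overlap, such as the highest day 15 array of the mitochondrial set at 0.03.

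Other genes of mitochondrial translation changed in both directions after 100 nM on day 8. Of all genes 4.07% were higher and 5.41% lower in this comparison, and the lists were not tested as sets. Of 30 genes for the assembly of the ribosome and the modification of its RNA, 3 rose and 1 fell. PUSL1, a pseudouridine synthase, rose by 0.68 (adjusted p = 0.0119) and NOA1, a GTPase of small-subunit assembly, by 0.40 (adjusted p = 0.00125), while the assembly GTPase MTG1 changed by -0.92 (adjusted p = 0.00214). Of 20 translation factors and related proteins 1 rose and 1 fell. These were OXA1L, which inserts newly made proteins into the inner membrane, at 0.47 (adjusted p = 0.00532) and the release factor MTRF1L at -0.38 (adjusted p = 0.0263). Of 22 genes listed as mitochondrial aminoacyl-tRNA synthetases only WARS2 changed, by -0.42 (adjusted p = 0.0402). This list also holds QRSL1, GATB and GATC, which are not synthetases, and KARS1 and GARS1, which also serve the cytosol. Of 19 genes of mitochondrial transcription and RNA processing 3 fell, among them MTERF1 at -0.70 (adjusted p = 0.00549) and FASTKD5 at -0.57 (adjusted p = 0.000239). Of 10 regulators of nuclear genes for mitochondria 2 rose, which were PPARGC1B at 0.47 (adjusted p = 0.0144) and PPRC1 at 0.34 (adjusted p = 0.00587). Of 5 proteins of the ribosome with other symbols 0 changed.

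From day 8 to day 15 in DMSO 10.1% of all genes rose and 13.2% fell. Of 30 assembly genes 2 rose and 9 fell, and of 20 translation factors 1 rose and 5 fell. Of the 22 genes of the synthetase list 2 rose and 7 fell, and of 19 transcription and processing genes 0 rose and 6 fell. The medians of these lists, in this order, were -0.13, -0.14, -0.24 and -0.16, each below that of all genes. The lists were not tested as sets. MTG1 changed by -0.91 (adjusted p = 0.000888). LARS2, the leucyl-tRNA synthetase, changed by -0.78 (adjusted p = 0.000459), the helicase SUPV3L1 by -0.72 (adjusted p = 0.00316) and GFM2, a factor of ribosome recycling, by -0.60 (adjusted p = 0.00117). NGRN, which is needed for the large-subunit RNA, rose by 0.48 (adjusted p = 0.00286) and the assembly factor MALSU1 by 0.37 (adjusted p = 0.000803). Of the 5 ribosomal proteins with other symbols PTCD3 of the small subunit fell by 0.41 on the log2 scale (adjusted p = 0.0162). Among the 10 regulators 2 rose and 2 fell. PPARGC1B changed by -0.90 (adjusted p = 1.24e-05) and GABPB1 by -0.60 (adjusted p = 0.0161), while PPARGC1A changed by 0.65 (adjusted p = 0.0327) and MYC by 0.64 (adjusted p = 0.0496).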

How the data were processed

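RNA of 24 samples was measured on single-colour Agilent arrays of 62976 spots. Per spot, the authors deposited the intensity and that of its local background, written by Agilent Feature Extraction (11.5.1.1 in the submitters' processing notes). They also deposited log2 values, normalized by them, for 21733 probe identifiers, of which 19615 could be named. These values were used as an alternative, and each of their columns correlated best with its own array. The array files give version 11.5.1.1 or another version of this software by slide.

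The order and kind of the steps were taken from the study's methods. They differ from the study in that genes were named by RefSeq accession in place of Entrez-ID and were called at any fold change, and the filter on dim spots, as read here, kept 59462 spots, more than in the study. Background was removed from the median intensity by normexp without offset (limma 3.58.1, R 4.3.3), and arrays were quantile normalized. ComBat in its parametric form, given the groups, then adjusted slide 1 as 1 batch and the other 2 slides as another to a common mean and spread. A spot was kept when at least 3 arrays showed it above 1.1 times the 95th percentile of 308 negative controls. Flagged values were set to missing, control spots were left out, and spots of a probe, then probes of a gene, were averaged. Accessions without version were matched to RefSeq of GRCh38.p14, which named 30275 of 50599 probes. Groups were compared with lmFit and eBayes in a single fit (16 residual degrees of freedom, 2.37 prior). A gene was called at a two-sided Benjamini-Hochberg adjusted p under 0.05 with any fold change. Tables were read with data.table (1.17.8) and jsonlite (2.0.0), and figures drawn with matplotlib 3.10.9, pandas 2.3.3 and numpy 2.4.6 under Python 3.11.15. Signals of different probes were not compared with each other.

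The members, the gene lists and the tests were chosen with earlier results of these data known. Text names, per comparison, up to 8 called members with the largest change in each direction, the 3 with the smallest p where fewer than 3 were called, members called in all 3 rotenone comparisons of day 8, and up to 2 called genes per direction of each other list. SLC5A3, MRPL14, MRPL54, MRPS18C, MRPL37 and other members outside this rule were named after their values were seen.

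Before ComBat, arrays with the same replicate number deviated together from their group means: the lowest correlation in 84 such pairs was 0.171 and the median 0.458, against a median of -0.354 in 168 other pairs. The numbers pair the samples through the shared slide, and the slide as a block was an alternative. In 10 simulated data sets of the 100 nM comparison of day 8, with 200 of 21197 genes changed, 6.84% of changes of 0.3, 30.3% of 0.5 and 66% of 1 on the log2 scale were recovered and 12% of the calls were false. With the block these were 2.5%, 21.4%, 59.9% and 5.55%. The noise was drawn separately for each gene and array, and only slide 1 was given a shift. In the data many more genes were called in this comparison, 865 higher and 1149 lower, so that these rates need not hold for it. Among the unchanged genes of the simulated data sets 6.59% had a p under 0.05 after ComBat and 4.9% with the block, so that p-values after ComBat are somewhat too small. The number of arrays limits the precision.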

Additional observations from a re-analysis of the deposited data

Results flagged for a closer look

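MRPS6 was flagged because its change after 100 nM rotenone differed between the days in a test of that difference (limma, adjusted p = 0.00718). The change was -0.41 (SE 0.09) on day 8 and 0.27 (SE 0.09) on day 15, a difference of 0.678 on the log2 scale with 3 arrays per group. MRPS6 was called in all 12 fits that left out 1 array each, but in only 6 of the 11 alternatives. The call was lost without batch correction (adjusted p = 0.0828), with the scanner's processed signal (0.113) or the median signal (0.173) scaled to the 75th percentile, with slides 2 and 3 alone (0.243) and in a fit of only the arrays compared (0.0723).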

How the results depend on the processing

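The numbers of called members of day 8 and between the days changed with the treatment of slide 1 and with the arrays in the fit. They also changed with the offset, the filter and the source of the values. For 100 nM, 50 nM 24 h, 50 nM 12 h and DMSO between the days, in this order, they were 7, 6, 8 and 20 as reported. They were 1, 0, 1 and 9 without batch correction, 0, 0, 0 and 1 with slides 2 and 3 alone (fewer samples), and 1, 0, 0 and 8 in fits of only the arrays compared (fewer samples). With a normexp offset of 50 the first 2 became 13 and 11, with the authors' deposited log2 values (75 members tested) 14 and 14, and with only probes well above background the first became 12. With arrays left out one at a time they were 4 to 6, 2 to 5, 3 to 7 and 14 to 23. For the difference of the 100 nM change between the days, 1 member was called as reported, 4 with an offset of 50 and with the deposited values, 3 with only probes well above background, 2 with scaling to the 75th percentile or the brightest probe, 0 without batch correction, with slides 2 and 3 alone or in a fit of the arrays compared, and 1 to 3 with an array left out (2 without day 15 DMSO replicate 1, 3 without day 15 100 nM replicate 3). For 24 h against 12 h of 50 nM, 0 became 1 with an offset of 50 and with the deposited values, and 0 to 2 with an array left out. On day 15, 0 members were called under all 11 alternatives and with any array left out. The cause of these shifts, where not the number of samples, was not tested.

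The median of the members after 100 nM on day 15, 0.00 as reported, was -0.045 with the scanner's processed signal and -0.043 with the median signal, each scaled to the 75th percentile, and -0.026 to 0.038 with an array left out. After 50 nM for 24 h on day 8 it was 0.111 and 0.121 under these scalings and 0.030 to 0.082 with an array left out. After 50 nM for 12 h on day 15 it was 0.025 with the processed signal and with slides 2 and 3 alone, and 0.003 to 0.055 with an array left out. For the difference between the days it was -0.111 with scaling to the 75th percentile, and between 100 and 50 nM -0.061 and -0.066 under both scalings. The processed signal also moved the median of all genes, to 0.103 for 100 nM on day 8, so that changes are relative to such a shift.

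Only changes near 0 turned their sign. On day 15 MRPL24 was at 0 after 100 nM and -0.017 after 50 nM 24 h with scaling to the 75th percentile, and after 50 nM 12 h at 0.025 with the processed signal and 0.028 with slides 2 and 3 alone, where MRPS25 was at -0.080 and MRPS6 at -0.039. With an array left out MRPS25 ranged from -0.110 to 0.082, -0.121 to 0.070 and -0.032 to 0.159 after 100 nM, 50 nM 24 h and 50 nM 12 h on day 15, MRPL24 from -0.012 to 0.064 and -0.043 to 0.051 after the last 2, and MRPS6 from -0.018 to 0.074 after the last. The change of MRPS6 between the days was called under all 11 alternatives, from -1.06 to -1.02. With the replicate block in place of ComBat the numbers of called members were 10, 8, 8 and 23, no number moved by more than 1.5 times, and the block changed the call of no named member other than MRPS5 after 50 nM 12 h.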
